A study of Mus musculus with 115 samples.

Results

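The constructs described here are the partner and no-motif constructs of an amplicon NOMe-seq screen in mouse embryonic stem cells. Members were all constructs of the unphased, nuc, non_nuc and tiles groups whose name ends in _r or contains no_motif in any letter case. This rule found 61 of the 275 constructs of the series, of which 272 lay in the 4 classes and 211 of those carried a motif under a plain factor name. The unphased class held 15 members (14 named _r and NO_MOTIF) of 122 constructs. The nuc and non_nuc classes held 7 members each (6 named _r and no_motif) of 24 constructs. The tiles class held 32 members of 102 constructs, all named _r, with BHLHE40_r, CTCF_r, OctSox_r and REST_r placed at tiles 2 to 5 of the CTCF backbone and of the REST backbone. The labels do not define the suffix. Outside the tiles, each of the 26 _r names is that of a motif construct of the same class with _r added, so all of them are called partner constructs here.

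The cells were labelled 129S6/SvEvTac embryonic stem cells, and every group carried the same kind of insertion at the recombinase-mediated cassette exchange locus, with no treatment or other genotype named for these groups. Each library was made from 1 pool of constructs, as 2 libraries per unphased pool and 3 per pool of the other classes. Members came from 7 of 18 unphased pools (14 libraries), 3 of 5 nuc pools (9 libraries), 3 of 3 non_nuc pools (9 libraries) and 10 of 14 tiles pools (30 libraries). No member was read in more than 1 pool, so a member and its pool cannot be told apart unless another member shares the pool. The labels do not say whether libraries came from separate cultures, so p-values measure the spread between these libraries, which may be technical.

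In NOMe-seq a GpC methyltransferase added to nuclei marks cytosines that are open, while DNA wrapped on a histone octamer or covered by a bound protein stays unmarked. In embryonic stem cells, linkers beside strongly positioning factors such as CTCF are known for high marking, with protected stretches of nucleosome size on either side. GCH sites (GC followed by A, C or T) are read because mammalian CpG methylation leaves them untouched, and a level is the fraction of reads methylated at one such site.

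All values are GCH methylation as a percentage of reads per site, deposited as fractions without read counts, so depth is unknown and no counting interval is given. Positions count along the construct as the files number them. Tests were run with limma on M-values, log2((f + 0.01)/(1 − f + 0.01)) of the fraction f, with Benjamini-Hochberg adjustment and a threshold of 0.05. Median levels over members ranged from 34.8% to 54.6% between the 14 unphased libraries, from 36.1% to 59.2% between the 9 nuc libraries, from 35.5% to 56.2% between the 9 non_nuc libraries and from 44.3% to 64.0% between the 30 tiles libraries. Replicate 1 of nuc pool 4, which holds BANP_r as its only member, stood farthest from the mean of its construct, with a mean deviation of -11.9 percentage points. Replicate 2 of tiles pool 6 followed in root mean square deviation, at 13.2 points for its CTCF-backbone member. In non_nuc, the no_motif libraries of pool 1 deviated from their construct mean by -5.92 points in replicate 1 and 5.19 in replicate 2, and replicate 1 of pool 3 (BANP_r) by 5.33.

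The backbones shared blocks of sites with identical spacing. A left block of 6 sites and a right block of 4 sites occurred in every backbone, at 22 to 53 and 187 to 243 in the unphased constructs, 71 to 102 and 236 to 292 in nuc, 47 to 78 and 236 to 292 in non_nuc, and 50 to 81 and 243 to 299 in both tile backbones. The 5 sites of the stretch from 39 to 63 in nuc had the spacing of 5 sites in non_nuc that lie 70 bases further along, the last of them 7 bases before position 140. The REST tiles held the same 5 spacings 25 bases earlier, from 14 to 38, while at most 3 sites of the CTCF-tile stretch matched at any 1 offset. The unphased constructs had no such stretch. Partner constructs of a class differed from each other in a variable window inside the amplicon, a span in which not every member has the same sites: 127 to 154 in unphased, 176 to 203 in nuc and non_nuc, 92 to 118 at tile 2, 173 to 198 at tile 4 and 213 to 238 at tile 5, with that of tile 3 ending at 158. At the ends of the amplicon some members also had sites or values that others lacked, as BANP_r of non_nuc with sites up to 353. The low stretches were picked with earlier results of the same data known, so their low levels are descriptions.

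In the nuc class, members showed 1 narrow low stretch, a high plateau, a broad trough and a partial return. Averaged over the 7 members, the level was 80.9% at position 33, 16.1% at 39, 15.9% at 45, 17.5% at 57, 15.8% at 59, 20.4% at 63 and 86.7% at 71. Both edges of the stretch lay between neighbouring sites, 6 and 8 bases apart. The plateau held 83.5% at 83, 83.1% at 92, 83.4% at 102 and 78.2% at 120. The level then declined over several sites, with 73.5% at 132, 68.0% at 140, 64.7% at 148, 63.2% at 150 and 53.4% at 157. Beyond the variable window it was 18.2% at 213, 16.9% at 236 and 21.6% at 246. This trough was at a level like that of the narrow stretch, and its right side was spread over several sites, with 27.6% at 259, 46.4% at 292 and 71.0% at 297. From 303 to 353 it stayed between 43.9% at 349 and 62.8% at 313.

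The level of the nuc low stretch, as the mean of its 5 sites, was 16.9%, 15.1% and 9.20% in REST_r, named for the repressor of neuronal genes REST. It was 16.2%, 14.4% and 14.7% in OctSox_r, named for the pluripotency pair Oct4 and Sox2, and 14.5%, 18.5% and 9.78% in ATF4_r, named for a stress-response bZIP factor. The no_motif construct had 18.2%, 11.6% and 14.6%. These 4 constructs overlapped library by library. TRP53_r, named for mouse p53, had 19.9%, 20.6% and 14.4%. CTCF_r, named for the insulator protein CTCF, had 15.2%, 15.7% and 33.5%, and BANP_r, named for a factor of CpG-rich promoters, had 27.2%, 19.6% and 20.1%. TRP53_r and CTCF_r also overlapped each of the 4 constructs above, while every BANP_r library lay above all libraries of these 4. Replicate 3 of CTCF_r and replicate 1 of BANP_r were the 2 highest values of the class. The left block beside the stretch was lower in these 2 libraries than in the other libraries of the same construct, at 68.0% against 79.0% and 77.3% in the other CTCF_r libraries and at 57.2% against 84.0% and 80.9% in the other BANP_r libraries. Over the 7 members the standard deviation between construct means was 3.57 points for the stretch and 6.13 points for the left block. Between single libraries of a construct it was 5.14 and 6.57 points. Means over 3 libraries spread less than single libraries, so these values are not on the same scale.

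In the non_nuc class the narrow low stretch stood inside the high plateau. Averaged over the 7 members, the level was 48.9% at 33, then 77.2% at 47, 77.9% at 59, 81.6% at 78 and 83.0% at 96. Within the stretch it was 22.1% at the first site, 19.9% at 115, 19.9% at 127, 18.9% at 129 and 28.1% at the last site, and at 140 it was 81.5%. The plateau thus resumed at the next shared site and held 78.6% at 157. The level was 38.5% at 213, 27.6% at 236, 23.5% at 259 and 24.2% at 292, and the last site shared by all members, 326, had 42.5%. At 297, where nuc members averaged 71.0%, non_nuc members averaged 46.2%.

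The non_nuc stretch was read at 18.6%, 21.8% and 18.4% in ATF4_r, 23.8%, 22.4% and 20.9% in OctSox_r and 20.8%, 19.3% and 21.7% in TRP53_r. CTCF_r had 22.1%, 25.3% and 15.6% and REST_r had 24.5%, 23.8% and 16.1%. BANP_r had 29.6%, 25.2% and 23.3%, and no_motif had 12.8%, 33.7% and 17.7%. The no_motif libraries alone spanned the range of the class, since its replicate 2 was the highest and its replicate 1 the lowest value. At single sites, the last site of the stretch differed between members (limma F-test, adjusted p = 0.0261). There BANP_r had 43.0%, 44.5% and 39.4%, while the other 6 members averaged between 22.4% in ATF4_r and 27.4% in OctSox_r. BANP_r is the only member of non_nuc pool 3, so construct and pool cannot be told apart. The right block was even across members, with member means between 23.8% and 26.2% and a standard deviation between constructs of 0.875 points, against 4.28 points between libraries.

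The nuc and non_nuc members carry the same partner names, so the same name could be compared between both contexts. The 2 classes were read in separate pools, so class and pool cannot be told apart. Of the 7 members, 5 share the libraries of pool 2 in each class, and all sites of a construct come from the same libraries. The counts of members and sites below are therefore not counts of independent comparisons. From position 140 the 15 shared sites have the same coordinate in both classes, which left 105 member comparisons. Of these, 66 passed the threshold in limma (62.9%, against 49.2% of the 360 comparisons over all 24 constructs), 40 lower and 26 higher in nuc. Over all constructs, 30.6% of the 360 were lower and 18.6% higher in nuc. The members' share lay above that of the whole class, and no test of that difference was run. Shares over all constructs were not taken at single positions, so the counts by position describe the members only. At position 157 all 7 members were lower in nuc. ATF4_r had 57.8%, 50.9% and 52.8% in nuc, against 79.9%, 73.1% and 74.1% in non_nuc, a difference of -1.39 (SE 0.31, adjusted p = 0.00323) on the M-value scale. The no_motif construct had 62.7%, 50.6% and 60.1% in nuc, against 67.8%, 76.4% and 81.1% in non_nuc, a difference of -1.13 (SE 0.36, adjusted p = 0.0196). Neither construct had overlapping libraries, and the 7 differences ran from -2.49 to -1.13. At 148, 150, 213 and 221 each, 6 of 7 members passed the threshold as lower in nuc, at 236 there were 5 and at 140 there were 4. The members that did not pass at these sites also had negative differences. With 1 replicate number left out at a time, 45 to 61 of the 105 passed, with 6 or 7 members at 157 and 0 to 3 at 236.

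At positions 246, 249 and 259 no member differed past the threshold, with smallest adjusted p-values of 0.101, 0.156 and 0.17 (without replicate 1, 1 member passed at 259). Beyond them the direction turned, and at 292 all 7 members were higher in nuc. REST_r had 50.1%, 44.9% and 35.5% in nuc, against 20.3%, 25.6% and 20.1% in non_nuc, a difference of 1.41 (SE 0.33, adjusted p = 0.00434). BANP_r had 36.1%, 61.1% and 88.1% in nuc, against 34.1%, 8.31% and 25.4% in non_nuc, with the widest spread of the 7 and a difference of 2.79 (SE 0.82, adjusted p = 0.0145). All 7 members also passed at 303, 5 each at 297 and 313 and 2 at 326. Whether these positions are particular to members was not tested. With 1 replicate number left out, 4 to 6 members passed at 292 and 6 at 303. In the shared coordinate, nuc members were thus lower on the left side of the trough and higher on its right side. The interpolated position at which the level first fell through 50% to the right of the plateau had a median of 164 in nuc members (SD between constructs 10.9) and 195 in non_nuc members (SD 7.58). The 4 other sites that coincide by coordinate (33, 59, 96 and 115) belong to different blocks in the 2 classes, and with them 87 member comparisons passed (65.4%, against 54.8% over all constructs).

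With blocks of equal spacing matched by their own offset, 69 of 203 member comparisons passed (34%), against 29.9% of the 696 over all constructs. This count rested on all 3 libraries: 40 passed without replicate 1, 7 without replicate 2 and 30 without replicate 3. Within the low stretch 1 of 35 member comparisons passed. Within the 9-site block to which the left block belongs, with 7 members compared at each site, 7 were higher and 1 lower in nuc. The higher ones at non_nuc positions 59, 72 and 75 were all in no_motif. At 47 they were in no_motif, BANP_r, OctSox_r and REST_r. The lower one was CTCF_r at 96. Shares over all constructs were not taken for the stretch or the block alone. With 1 replicate number left out, 0 passed within the stretch and 0 or 1 within the 9-site block. As region means, none of the 7 members differed past the threshold in the low stretch, the rest of the amplicon or the whole amplicon. In limma 0 had an unadjusted p under 0.05, and 0% of 24 constructs were called in each region. The whole amplicon was averaged over 34 sites in nuc and 30 in non_nuc. It and the rest of the amplicon thus compare unlike sets of sites, and pool sites lower in nuc with sites higher in nuc. The differences of the low stretch, nuc minus non_nuc, ran from -0.76 to -0.02 with standard errors of 0.37 to 0.43, and differences of this size were not detectable over the spread between libraries. REST_r had the lowest of these, -0.76 (SE 0.39, adjusted p = 0.238).

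The variable window was lower in nuc than in non_nuc for every member. Here each construct has the same sites at the same positions in both classes, from 1 site in no_motif to 5 in TRP53_r. Every nuc library lay below every non_nuc library in 7 of 7 members, which compares with 83.3% of all 24 constructs. Of these members, 5 share the libraries of pool 2 in each class and are not independent. OctSox_r had 18.7%, 17.3% and 23.3% in nuc, against 54.3%, 51.2% and 47.6% in non_nuc. BANP_r had 13.8%, 14.5% and 12.4% in nuc, against 51.8%, 57.5% and 43.9% in non_nuc. The no_motif construct, at its single site 189, had 33.3%, 23.7% and 27.9% in nuc, against 61.8%, 68.8% and 70.7% in non_nuc. The gap between these values exceeded the spread of the 3 libraries on each side. The other 4 members lay between 25.3% ± 6.14 (CTCF_r) and 34.8% ± 8.48 (REST_r) in nuc and between 55.0% ± 5.52 (CTCF_r) and 66.2% ± 0.53 (TRP53_r) in non_nuc (SD, n = 3 each). With 3 against 3 libraries an exact permutation test of 1 construct could not go below 0.1, and none was run.

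Against the no_motif construct of the same class, partner constructs of nuc and non_nuc differed past the threshold at few sites. In both classes no_motif was read in pool 1 and shares no library with any partner. Construct and pool therefore cannot be told apart, and few calls do not show that the constructs are alike. In nuc, 4 of 204 member comparisons passed in limma (1.96%, against 8.18% of 782 over all constructs, 4.86% higher and 3.32% lower). In non_nuc it was 0 of 180 (0%, against 10.1% of 690, 9.71% higher and 0.435% lower). There 11 had an unadjusted p under 0.05. The 4 in nuc were all lower in BANP_r. At position 150 BANP_r had 37.3%, 45.8% and 36.5%, against 74.1%, 64.4% and 70.8% in no_motif, a difference of -1.77 (SE 0.46, adjusted p = 0.00416). At 157 it had 35.0%, 31.9% and 36.2%, against 62.7%, 50.6% and 60.1% in no_motif, a difference of -1.37 (SE 0.46, adjusted p = 0.0488). At these sites all 3 BANP_r libraries were below all no_motif libraries. At 96 BANP_r had 45.7%, 80.4% and 73.2%, against 87.6%, 87.4% and 90.1% in no_motif, and at 115 it had 44.2%, 83.1% and 74.1%, against 87.2%, 86.3% and 85.9%. There the difference was carried mainly by replicate 1 of pool 4. Without replicate 2, 2 member comparisons passed in nuc, and without replicate 3 none did. As region means, 0 of 6 partner constructs passed in either class, in the low stretch, outside it or over the amplicon, at background shares of 0% for the stretch and the amplicon in both classes and of 13% outside the stretch in nuc and 26.1% in non_nuc. In nuc 1 partner each, BANP_r, had an unadjusted p under 0.05 in the stretch and outside it. The amplicon differences from no_motif ran from -0.29 to 0.03 in nuc (SE 0.16) and from 0.11 to 0.20 in non_nuc (SE 0.24). The difference of these differences between the classes passed for 0 of 6 partners in each region (limma, 0 at an unadjusted p under 0.05, with 0%, 0% and 13% of 23 constructs called in the amplicon, the stretch and outside it).

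Members of one class were also set against each other. In nuc, 4 of 34 sites (11.8%) differed between the 7 members in a limma F-test, at 96, 115, 150 and 157, where BANP_r was the lowest member. With 1 replicate number left out at a time, 0 or 1 nuc site passed. In non_nuc, 3 of 30 sites (10%) differed, at the last stretch site, at 297 and at 313, with 0 passing without replicate 1 or replicate 3 and 5 without replicate 2. Within the 5 partners that share pool 2, with the library as a term, 12 of 34 nuc sites passed (35.3%), at each of the 10 shared sites from 71 to 132, at 140 and at 297. At position 120 CTCF_r had 72.9%, 71.4% and 66.0%, the lowest of the 5, and REST_r had 88.6%, 81.4% and 82.1%, the highest (adjusted p = 0.0052). Without CTCF_r 0 of 34 sites passed (limma, 5 at an unadjusted p under 0.05), and without replicate 1 none did. In non_nuc, 5 of 30 sites passed within pool 2 (16.7%), at 213 and, to the right of the right block, at 297, 303, 313 and 326. At 313 CTCF_r had 45.7%, 46.2% and 44.8%, OctSox_r 40.3%, 38.3% and 43.3%, REST_r 32.7%, 34.2% and 31.6% and TRP53_r 33.1%, 32.7% and 26.0% (adjusted p = 0.00119). TRP53_r and REST_r stayed below CTCF_r in each library. Without replicate 1 the non_nuc count was 1, and without replicate 2 it was 3.

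The unphased members lacked the narrow stretch and had a shallower profile. Averaged over the 15 members, the level was 54.4% at position 22, 58.0% at 53, 58.7% at 68 and 58.8% at 101, the highest shared site. To the right of the variable window it was 33.8% at 164, 33.2% at 187, 34.4% at 197, 35.1% at 210 and 32.4% at 243. The left block thus averaged 55.3% in unphased members, where the same 6 spacings averaged 83.3% in nuc members and 79.4% in non_nuc members. The right block averaged 33.8% in unphased members, 28.1% in nuc members and 25.1% in non_nuc members. The classes were read in different pools, and no test between unphased and the other classes was made.

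Between unphased members, the amplicon level over the 12 sites shared by every construct ranged from 41.5% in RARA::RXRA_r to 50.9% in CTCF_r, with a standard deviation of 3.25 points between constructs and 2.61 between libraries. The highest members were CTCF_r with 49.4% and 52.5%, BANP_r with 50.6% and 51.2% and REST_r with 47.5% and 54.0%. The lowest were RARA::RXRA_r, named for a retinoic acid receptor pair, with 37.7% and 45.4%, TGIF1_r, named for a homeobox repressor, with 44.4% and 40.0%, SOX2_r, named for the pluripotency factor Sox2, with 41.7% and 46.4%, and NFYB_r, named for a subunit of the CCAAT-binding factor, with 44.8% and 43.3%. The no-motif construct NO_MOTIF, alone in pool 1, had 49.2% and 50.5%. CTCF_r and REST_r overlapped it, while both libraries of each of the 4 lowest members lay below it. The other 7 members averaged between 44.8% ± 0.916 in POU5F1::SOX2_r and 50.1% ± 0.492 in ATF4_r (SD, n = 2 each), with POU5F1B_r, ESRRB_r, TRP53_r, MYBL2_r and GABPA_r between them. In the F-test 12 of 14 shared sites differed between members (85.7%), and within pools 14 of 14 did (100%). The smallest adjusted p between members was 1.18e-06, at position 164 beside the variable window. There SOX2_r had 22.1% and 24.1%, POU5F1B_r had 25.8% and 22.0% and POU5F1::SOX2_r had 25.0% and 26.5%, while REST_r of the same pool 4 had 38.0% and 46.5%. The 3 constructs named for Sox2 and POU factors lay below REST_r in both libraries.

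Against NO_MOTIF, 4 of 14 unphased partners had a lower amplicon level in limma and 0 a higher one (28.6%, against 42.1% of 121 constructs, 2.48% higher and 39.7% lower). The differences on the M-value scale were -0.48 (SE 0.13, adjusted p = 0.00148) in RARA::RXRA_r and -0.44 (SE 0.13, adjusted p = 0.0036) in TGIF1_r. They were -0.33 (SE 0.13, adjusted p = 0.031) in SOX2_r and -0.33 (SE 0.13, adjusted p = 0.0311) in NFYB_r. The members' share was below that of the class as a whole. With the replicate number as a term, 0 of 14 passed and 7 had an unadjusted p under 0.05. Whether equal numbers pair these libraries is not known. Over all sites of each construct, in place of the shared ones, RARA::RXRA_r alone passed. Per site, 24 of 168 member comparisons passed (14.3%, against 23.5% of 1452, 4.34% higher and 19.1% lower), 2 higher and 22 lower than NO_MOTIF. Of the lower ones 6 were in TGIF1_r, at 34 to 68, 5 in RARA::RXRA_r, at 47 to 101, and 4 in ESRRB_r, named for an orphan nuclear receptor, at 47 to 68. At 68 TGIF1_r had 53.9% and 46.6% and RARA::RXRA_r 47.3% and 53.6%, against 65.5% and 68.6% in NO_MOTIF. The 2 higher ones were BANP_r at 187, where it had 40.6% and 40.3%, against 30.3% and 31.9% in NO_MOTIF, and MYBL2_r at 101. MYBL2_r, named for a cell cycle factor of the Myb family, had 75.0% and 70.4% at 101, against 59.2% and 63.9% in NO_MOTIF, a difference of 0.72 (SE 0.24, adjusted p = 0.0153). With 2 libraries per construct these calls rest on a spread shared across constructs, and NO_MOTIF shares no library with any partner.

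In the unphased variable window, member levels ran from 32.3% in POU5F1B_r to 57.3% in REST_r, with a median of 45.9%. This lay between the medians of nuc members (26.1%) and non_nuc members (56.6%). REST_r had 51.3% and 63.2%, SOX2_r had 39.3% and 45.2%, POU5F1B_r had 31.7% and 33.0% and NO_MOTIF had 42.4% and 41.7%. The libraries of REST_r and POU5F1B_r, both from pool 4, did not overlap. The standard deviation between members was 7.05 points, against 3.56 between libraries, but the window sites differ between members, with 2 to 5 sites each.

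In the tiles class, both backbones showed a low stretch at their left end followed by a plateau. The CTCF-backbone members averaged 7.94% at position 19, 7.42% at 23, 8.71% at 30, 7.73% at 32 and 10.3% at 37, then 88.5% at 50. The REST-backbone members averaged 13.1% at 20, 13.9% at 32, 13.2% at 34 and 18.3% at 38, then 86.0% at 50. Position 8 did not belong to the low sites in the REST backbone, where the 10 members with a value averaged 78.2%. In the CTCF backbone it averaged 12.8% over the 16 members, and position 14 averaged 23.6%, with REST_r at tile 2 at 86.7%. Positions 8 and 14 lacked values in some libraries, and the stretch level was taken over the sites present in all members. The median stretch level was 6.55% over the 16 CTCF-backbone members, with 2.65% as the lowest, in OctSox_r at tile 4, and 15.8% over the 16 REST-backbone members, from 7.13% to 26.9%. The left block averaged 86.6% in CTCF-backbone members and 83.0% in REST-backbone members. The 2 backbones were read in separate pools apart from pool 6.

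The CTCF-backbone stretch differed between partner constructs of the same tile. In the F-test over tiles, 30 of 236 combinations of tile and site passed (12.7%). These included each of the 20 stretch combinations of the CTCF backbone and 10 of the 200 outside the stretches. None of the 16 stretch combinations of the REST backbone passed (2 at an unadjusted p under 0.05, and 1 passing without replicate 3). Sites of a stretch come from the same libraries, and most pools hold their partner at several tiles. The combinations are therefore not independent. Per library, the level was 5.71% to 23.8% in the 3 CTCF_r constructs of pool 5 (median 14.8%) and 2.40% to 10.9% in the 4 BHLHE40_r constructs of pool 11 (median 7.51%). It was 1.33% to 9.38% in the 4 REST_r constructs of pool 2 (median 3.62%) and 1.55% to 7.70% in the 3 OctSox_r constructs of pool 1 (median 3.28%). Of these 4 sets CTCF_r had the highest median and REST_r and OctSox_r the lowest, with overlap between the sets. The OctSox_r construct of pool 6 lay above all 4 in median, at 20.3%. At tile 5, position 37 was read at 26.5%, 17.5% and 25.0% in CTCF_r, 14.9%, 10.6% and 7.16% in BHLHE40_r, 4.27%, 5.23% and 8.06% in OctSox_r and 2.32%, 4.65% and 1.15% in REST_r (adjusted p = 1.22e-08). All 3 CTCF_r libraries lay above those of the other 3 partners. At each tile the 4 partners came from 4 different pools, so partner and pool cannot be told apart.

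The same partner was read in 2 pools of 1 backbone for OctSox_r and, in the CTCF backbone, for CTCF_r. The 2 pools held it at different tiles, so pool and tile cannot be told apart in these pairs. OctSox_r at tile 3 of the CTCF backbone was read in pool 6, with 20.3%, 35.2% and 16.5%, whereas OctSox_r at tile 4 in pool 1 had 1.55%, 4.82% and 1.57%. In the REST backbone, OctSox_r at tile 4 in pool 6 had 26.5%, 42.5% and 11.6%, whereas OctSox_r at tile 3 in pool 3 had 8.38%, 9.87% and 11.6%. CTCF_r at tile 4 of the CTCF backbone, in pool 12, had 13.8%, 10.9% and 8.81%, and CTCF_r at tile 3, in pool 5, had 6.50%, 5.71% and 19.8%, which overlapped. The OctSox_r constructs of pool 6 were the highest members of both backbones, and in the REST backbone BHLHE40_r of pool 8 also varied by library, with 26.9% to 38.0% over its 4 constructs in replicate 1 and 3.71% to 14.2% in replicates 2 and 3. Within pools, with the library as a term, 12 of 39 sites differed between members (30.8%). They were 8 of 20 in the CTCF backbone, among them the stretch positions 30 and 37, and 4 of 19 in the REST backbone, none of them in the stretch. Each tiles pool holds only 1 partner per backbone, so this test compared the same partner at different tiles and not different partners. The smallest p of the F-test within pools was at position 299 of the CTCF backbone (adjusted p = 0.00521). There REST_r of pool 2 had 38.9% ± 3.62 at tile 2, 39.3% ± 2.94 at tile 3, 51.8% ± 7.79 at tile 4 and 59.9% ± 7.87 at tile 5 (SD, n = 3 each). Without replicate 1 or without replicate 2, 0 of the 39 sites passed. The CTCF-backbone stretch passed at 15 of 20 combinations without pool 6, at 6 of 20 on the raw fraction, at 10 of 20 without replicate 1 and at 9 of 22 without replicate 2.

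The tiles place the same partner at 4 positions of 1 backbone, and the level of its own sites differed between the positions. In the CTCF backbone the 4 sites of REST_r, spaced alike at each tile, had 88.5%, 84.5% and 85.4% at tile 2, 67.9%, 69.1% and 62.7% at tile 3, 23.4%, 28.9% and 30.1% at tile 4 and 23.7%, 28.0% and 24.5% at tile 5. These 4 constructs were read in the same 3 libraries. In the REST backbone REST_r had 83.1%, 80.5% and 81.7% at tile 2, 58.6%, 52.2% and 55.3% at tile 3, 16.2%, 17.8% and 17.3% at tile 4 and 41.3%, 16.4% and 27.3% at tile 5, again in 1 pool. In REST_r of both backbones tile 2 lay above tile 3 and tile 3 above tiles 4 and 5 in every library, while tiles 4 and 5 overlapped. The median over the 4 partners was 83.5%, 62.8%, 24.4% and 26.8% at tiles 2, 3, 4 and 5 of the CTCF backbone, and 75.7%, 55.0%, 21.7% and 29.5% in the REST backbone. Every tile 2 library lay above every tile 4 library in 4 of 4 partners of each backbone, which compares with 66.7% of the 9 names read at both tiles in either backbone.

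Partners of one tile differed from each other in the window as well. OctSox_r at tile 5 had 18.3%, 18.3% and 17.5% in the CTCF backbone, against 36.6%, 35.9% and 33.9% in CTCF_r at the same tile. In the REST backbone OctSox_r at tile 5 had 14.1%, 11.3% and 14.8%, against 44.5%, 35.3% and 30.3% in BHLHE40_r, named for a basic helix-loop-helix repressor of E-boxes. OctSox_r was the lowest partner at tile 5 of both backbones and at tile 3 of both, without overlap with the highest partner at tile 5. At the shared sites just right of the tile 5 window the same constructs were the ends of the order in the REST backbone. At 243 BHLHE40_r had 56.4%, 50.3% and 43.3%, CTCF_r 31.1%, 35.6% and 31.2%, REST_r 38.1%, 25.0% and 29.2% and OctSox_r 13.9%, 12.2% and 21.5% (F-test, adjusted p = 0.0109). These 2 ends, BHLHE40_r and OctSox_r, did not overlap, and position 253 passed likewise (adjusted p = 0.0176). The window sites of different partners lie at different positions, so their levels are not read from the same bases.

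The amplicon level ran from 47.9% in REST_r at tile 3 to 56.6% in CTCF_r at tile 5 of the CTCF backbone, with a standard deviation of 2.09 points between constructs and 2.77 between libraries. In the REST backbone it ran from 49.4% in REST_r at tile 3 to 59.0% in BHLHE40_r at tile 5, with 2.86 points between constructs and 4.20 between libraries. The spread between constructs is that of means over 3 libraries, and the spread between libraries is that of single ones. Means spread less than single libraries, so the 2 values are not on the same scale. In the CTCF backbone the highest and lowest members were CTCF_r and REST_r at tile 2 (50.9% ± 0.992 and 49.0% ± 1.67), the same pair at tile 3 (51.5% ± 6.46 and 47.9% ± 2.35), BHLHE40_r and OctSox_r at tile 4 (54.3% ± 1.06 and 50.9% ± 4.90), and CTCF_r and OctSox_r at tile 5 (56.6% ± 1.74 and 50.1% ± 1.13; SD, n = 3 each). In the REST backbone they were BHLHE40_r and CTCF_r at tile 2 (56.0% ± 2.83 and 51.4% ± 3.45), BHLHE40_r and REST_r at tile 3 (56.5% ± 3.53 and 49.4% ± 1.09), OctSox_r and CTCF_r at tile 4 (57.6% ± 4.87 and 53.3% ± 4.77), and BHLHE40_r and CTCF_r at tile 5 (59.0% ± 8.54 and 50.1% ± 5.28). The libraries of the highest and the lowest member did not overlap at tile 5 of the CTCF backbone and at tile 3 of the REST backbone, and overlapped at the other tiles. Per site, the spread between constructs exceeded that between libraries at 8 of 20 sites in CTCF-backbone members and at 3 of 19 in REST-backbone members. This compares with 8 of 34 in nuc, 5 of 30 in non_nuc and 12 of 14 in unphased members. These counts rest on the same unlike scales, with means of 2 libraries in unphased and of 3 in the other classes.

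Members were last set against the motif constructs of the same libraries, as the difference of the 2 means within each library. Libraries of 1 pool hold the same constructs, so these p-values are too small. In the tiles class, at tiles 2 to 5, 12 of 39 sites differed in limma (30.8%), 8 higher and 4 lower in members. The sites were the same in both backbones: 127 and 243 were lower, and 299, 304, 310 and 320 were higher in members. At 299 members averaged 51.8% in the CTCF backbone and 49.7% in the REST backbone. The medians over motif constructs of the backbone at any tile, a wider set than that tested, were 38.8% and 40.3%. The within-library differences, at tiles 2 to 5, were 1.11 (SE 0.19, adjusted p = 1.41e-05) and 0.90 (SE 0.20, adjusted p = 5.76e-05). No stretch site of either backbone passed. In non_nuc, 7 of 30 sites were lower in members (23.3%), from 213 to 292. At 246 members averaged 25.1%, against a median of 40.7% over motif constructs, with a difference of -0.91 (SE 0.17, adjusted p = 3.33e-06). Without no_motif, which leaves out pool 1, 0 of 30 passed, with 6 at an unadjusted p under 0.05. In nuc, 0 of 34 sites passed (0%), with 10 at an unadjusted p under 0.05. In unphased, 10 of 12 sites were lower in members (83.3%), by 0.30 at 34 to 0.97 at 164 on the M-value scale. With either replicate left out 0 unphased sites passed in limma. Over the class as a whole the unphased sites were nearly level, for instance 33.8% in members and a median of 34.2% in motif constructs at 164.

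The variable window separated the 2 kinds of construct more at some places than at others. At tile 2 the members' window had medians of 83.5% in the CTCF backbone and 75.7% in the REST backbone, against 22.1% and 34.6% in the 5 motif constructs of each backbone, without overlap between the 2 kinds. At tile 3 the 2 kinds did not overlap in the CTCF backbone (medians 62.8% in members, against 26.6% in motif constructs) and overlapped in the REST backbone (55.0%, against 27.0%). At tile 4 the median was 24.4% in CTCF-backbone members, against 21.2% in motif constructs, and the 2 kinds overlapped in both backbones. In non_nuc the members' median was 56.6%, against 39.8% in 17 motif constructs, in nuc it was 26.1%, against 22.3%, and in unphased it was 45.9%, against 42.4% in 107 motif constructs. These values are a description, and no test of the window between members and motif constructs was made.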

How the data were processed

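Per the labels' protocols, GpC methylation of nuclei was followed by bisulfite conversion and amplicon sequencing of pooled constructs. The authors deposited, for each library, the GCH methylation level per construct and position as a fraction without read counts, so depth and counting precision are unknown. Per the submitters' processing notes, reads were processed with Trimmomatic 0.32, and the aligner and caller are not given in the sources used here.

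Levels are printed as percentages. Groups were taken from the labels, and constructs in identical copies in 2 pools were counted once. The last 5 sites of unphased_HIC2, which lie 1 base off in the file, were moved to the shared positions. Fractions f were tested as M-values, log2((f + 0.01)/(1 − f + 0.01)), with limma 3.58.1 in R 4.3.3, with the data.table package, version 1.17.8, with Benjamini-Hochberg adjustment at 0.05. F-tests used members only and were adjusted over the sites of a class. Differences between members and motif constructs were also adjusted over the sites of a class. The other comparisons were adjusted over all their constructs and sites, motif constructs included. F-tests compared members of a class or tile per site, without and with the library as a term. In tiles, those with the library compared the same partner at different tiles. Sites were compared with the no-motif construct in 1 model per class. Region means, and sites between nuc and non_nuc, were compared per construct, with the spread moderated over all constructs. Members were compared with motif constructs as differences within libraries. Sites shared by all constructs compared were used. Descriptions were computed with Python 3.11.15, numpy 2.4.6, pandas 2.3.3 and scipy 1.17.1. The tests were checked on simulated data.

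Of 5453 member values, 190 (3.48%) were missing and were left out. The text names every no-motif construct, per class the 3 members with the highest and the 3 with the lowest amplicon level, up to 10 members past each test, per class the 5 highest and 5 lowest shared sites with all low-stretch sites, and per tile and backbone the highest and the lowest member. The members, the low stretches and the lists were chosen with earlier results of these data known. The variable windows, the matched blocks and the fits without CTCF_r or without pool 6 were chosen after the values were seen. Alternatives were other M-value offsets, the raw fraction, other sets of sites, partner constructs only, a term for the replicate number, and leaving out each replicate. A comparison of 1 member between pools could not be made, since each member was read in 1 pool.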

Additional observations from a re-analysis of the deposited data

How the results depend on the processing

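Under all planned and added alternatives that gave a value, 180 of the values that answer a comparison stayed and 41 moved. A count stayed if it was equal, also at 0, or within 1.5 times. A stretch level stayed if it moved by less than the spread between libraries. The direction of these values was not scored. Of single constructs and sites, 754 stayed and 110 no longer passed. With no-motif constructs left out, member sites below motif constructs in non_nuc numbered 0, and sites differing between members numbered 5 in non_nuc and 2 in nuc; without CTCF_r the nuc count was 2, and 0 within pool 2. Over all sites of each construct, 1 partner each passed against no_motif for the nuc amplicon and outside the nuc stretch, and 1 in unphased. On the raw fraction 18 tile and site combinations differed between members, 6 of them in the CTCF stretch. With 1 replicate left out at a time, counts ranged from 0 to 4 for nuc sites against no_motif, from 0 to 1 in nuc, 0 to 5 in non_nuc and 9 to 40 in tiles (9 to 17 in the CTCF stretch and 0 to 1 in the REST stretch) for sites differing between members, and within pools from 0 to 12 in nuc, 1 to 5 in non_nuc and 0 to 12 in tiles; members below motif constructs in unphased gave 0 to 0, and the 69 calls between nuc and non_nuc with matched blocks became 7 to 40. With 1 more site on each side, the median stretch level was 35.6% in nuc and 39.1% in non_nuc, where the added sites lie outside the low run. In CTCF tiles it was 21.8% and in REST tiles 27.6%. There the site added on the left lies inside the named stretch and the one on the right outside it. With sites valued in any library it was 26.2% in REST tiles. The cause of the other shifts was not tested. With the replicate number as a block, 0 of 14 unphased partners passed against NO_MOTIF and 2 nuc sites differed between members. There 1 of 16 REST-stretch combinations passed, and no other of these counts moved past 1.5 times. Same-numbered nuc and non_nuc libraries correlated over 0.1 in their deviations for 1 of 3 numbers (-0.147 to 0.679). So did 5 of 9 same-numbered pairs between non_nuc pools and 130 of 306 between unphased pools. With 2 libraries per unphased pool, the deviations of 1 library mirror those of the other. This check therefore cannot decide whether equal numbers pair libraries. Leaving out a replicate was not run for the unphased tests between constructs, where 1 library per construct would remain. Without read counts, the share of any spread due to depth is unknown.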

Other observations

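Outside the 4 classes, 2 constructs named NRF1_r, for a factor of CpG-rich promoters, were read in a pool of their own and entered no comparison. The non_nucleosomal_NRF1_r construct averaged 49.8% ± 2.35 over its 21 sites (SD, n = 3 libraries, 47.1% to 51.4%). The unphased_NRF1_r construct averaged 44.2% ± 3.66 over its 16 sites (SD, n = 3 libraries, 40.0% to 46.9%). The amplicon levels of the members ranged from 50.3% to 53.8% in non_nuc and from 41.5% to 50.9% in unphased, over other sets of sites.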
